A study of Drosophila melanogaster with 4 samples.

Results

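Spliced loci with a small predicted protein were examined in a long-read catalogue of Drosophila melanogaster testis transcripts. A locus was a member when at least 1 of its transcripts was spliced and when the longest coding sequence (CDS, the summed CDS parts of a transcript) over all its transcripts measured 1 to 300 bp. This gave 50 of 9100 loci (0.549%), and 50 of the 6854 spliced loci with any CDS (0.730%). The members were chosen by their measured CDS lengths, so these lengths are described without a test.

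The catalogue came from PacBio Iso-Seq, in which polyadenylated RNA is read as full-length cDNA. Both groups carried bamGAL4, a driver of transgenes in late spermatogonia. The control (2 samples) had the driver alone, and in the knockdown (2 samples) it directed an RNAi construct against kmg, which encodes a zinc-finger protein of spermatocytes. Each sample pooled 150 pairs of testes from males 0 to 2 days old, raised at 29 °C after 3 days of egg laying at 25 °C. The authors merged all 4 samples into 1 list of transcript structures without read numbers. The depth of each sample is therefore unknown, 0 lines name a sample or condition, and control and knockdown could not be compared. Every value below is a description of the pooled catalogue. Loci are not replicates, and intervals are 95% exact binomial (Clopper-Pearson) intervals for shares and order-statistic intervals for medians, both covering counting error only.

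Small proteins have many roles in the male germ line. Short cysteine-rich proteins are built into the sperm tail, small basic proteins help pack sperm chromatin, and ribosomes, the proteasome and the respiratory chain all contain very small subunits. Short open reading frames also occur in transcripts annotated as long non-coding RNA, and a few of these are translated into micropeptides such as the sarcolambans of muscle. Gene prediction tools often apply a minimum length to reading frames.

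The number of spliced loci rose steeply close to the limit that defines the members. Only 7 spliced loci had a longest CDS of at most 100 bp, 15 had over 100 and up to 200 bp, and 28 had over 200 and up to 300 bp. The next class, up to 400 bp, held 269, and each following class of 100 bp up to 1200 bp held between 281 and 325. A further 651 spliced loci had no CDS at all. At each codon number from 90 to 99 (270 to 297 bp), between 0 and 2 spliced loci had their longest CDS, with 0 at 297 bp. The rise therefore began at 300 bp, just inside the limit. There, 6 loci had a CDS of 300 bp (100 codons), which were vtd, CG17290, CG18508, CG13606, lncRNA:CR43681 and the unnamed locus G4525. Just outside it, 9 loci had a CDS that was 1 codon longer, among them Sec61beta, a subunit of the translocation channel of the endoplasmic reticulum, CG11825 and CG13707. Codon numbers here are CDS lengths divided by 3. The sources used here do not state whether the stop codon is counted. Among loci whose transcripts were all unspliced, 48 of 909 with a CDS had one of at most 300 bp.

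**Figure D1:**
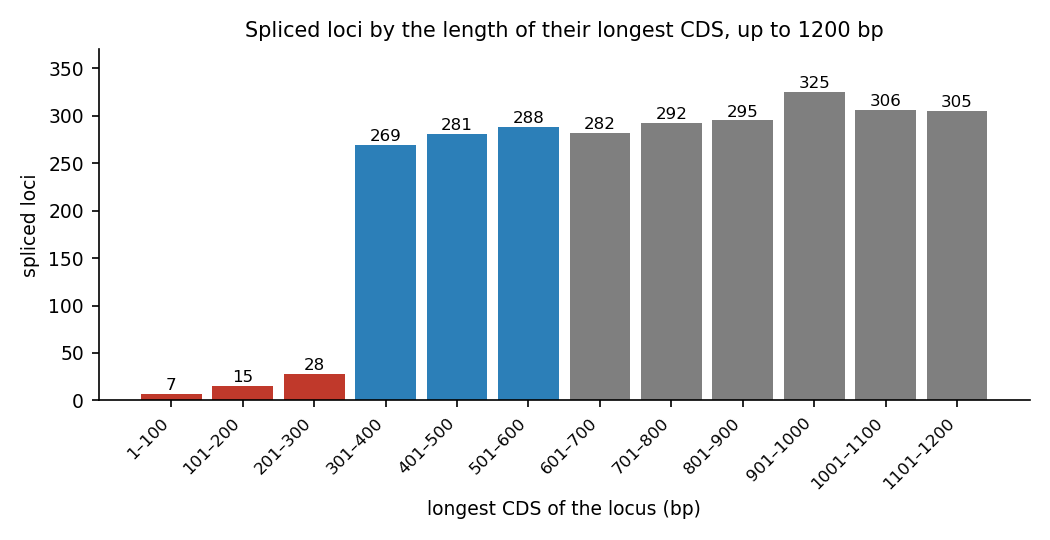
Bars give the number of spliced loci (vertical axis, linear from 0) by the length class of their longest CDS (horizontal axis, bp), with the members in red, loci up to 600 bp in blue and longer ones in grey. The classes up to 300 bp hold 7, 15 and 28 loci, and each class beyond holds at least 269.

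The median longest CDS of the members was 214.5 bp, with quartiles of 163 and 267 bp. In 43 members a spliced transcript carried a CDS. That was 86% of the members (interval 73.3 to 94.2). In the other 7 the CDS lay in an unspliced transcript alone, next to spliced transcripts without one. These 7 were the loci of CG42486, Nepl9, CG3719 and lncRNA:CR46455 and the unnamed loci G629, G4488 and G6137. With the CDS of spliced transcripts alone, 46 loci would have met the limit.

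Most members had 2 or 3 exons. The representative spliced transcript, taken as the one with the longest CDS, had 2 exons in 26 members, 3 in 19 and at least 4 in 5, with a median of 2 (interval 2 to 3). Among the 838 spliced loci with a longest CDS of over 300 and up to 600 bp, called the next size class below, the median was 3 (interval 2 to 3), and among all 6804 spliced loci over 300 bp it was 4 (interval 4 to 4). By this transcript, the members with the most exons were vtd with 8, the Nepl9 locus with 6 (in a transcript without CDS), the unnamed G11563 with 5, and lncRNA:CR43253 and the unnamed G10606 with 4 each. A further transcript without CDS, at the unnamed G6626, also had 4 exons. Exonic length had a median of 1011.5 bp (interval 791 to 1220), against 1031 bp in the next size class (990 to 1073) and 1080 bp in spliced loci without CDS. It was 2227.5 bp in loci over 300 bp.

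Untranslated regions took up more of the exonic length than the CDS in most members. The exceptions were CG8369, Sem1, e(y)2b and RpS27, with CDS shares of 60.5%, 55.9%, 54.9% and 54.4%. Over the 43 members with a spliced coding transcript, the CDS made up a median of 21.5% of the exonic length (interval 17.2 to 32.6), against 44.3% in the next size class and 72.2% in loci over 300 bp. The 5' UTR had a median of 188 bp (interval 117 to 262), against 187 and 233 bp in those groups. The 3' UTR had a median of 488 bp (interval 243 to 670), against 211 bp (188 to 228) and 217 bp (211 to 225). This order did not hold in the 10 of these members that reach both ends of a coding gene, a subset chosen after seeing the data, whose median 3' UTR was 168.5 bp (interval 78 to 1250) and median 5' UTR 92.5 bp (48 to 373). Over all 43, the 3' UTR was longer than the CDS in 29 members (67.4%, interval 51.5 to 80.9), against 225 of 829 loci (27.1%) of the next size class. The CDS share and this last count depend directly on the CDS length that chose the members, and none of these differences was tested.

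**Figure D2:**
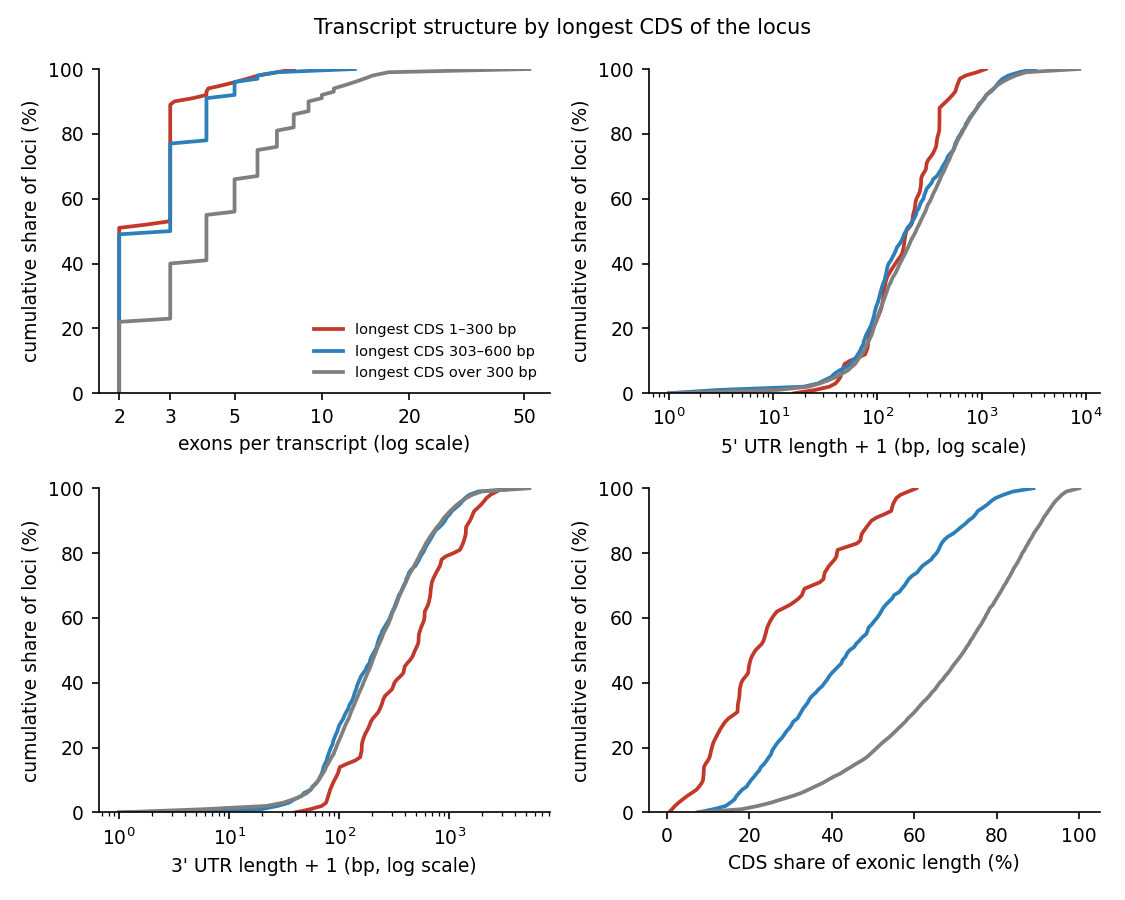
Each panel shows the cumulative share of loci (vertical axis, %) by exon number (log axis), 5' or 3' UTR length plus 1 (log axes, bp) or CDS share of the exonic length (%), drawn at each percentile, for members (red), loci with over 300 and up to 600 bp of CDS (blue) and all spliced loci over 300 bp (grey). The 3' UTR curve of the members lies to the right of the others except at its upper end, where the longest 3' UTR is 3030 bp against 4578 and 5356 bp, with medians of 488, 211 and 217 bp, while the 5' UTR medians are 188, 187 and 233 bp.

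Introns lay outside the CDS in many members. At least 1 intron lay within the CDS in 19 of 43 members (44.2%, interval 29.1 to 60.1), against 612 of 829 loci of the next size class (73.8%). An intron lay in the 5' UTR in 17 members (39.5%), against 320 of 829 loci (38.6%). It lay in the 3' UTR in 17 members (39.5%, interval 25.0 to 55.6), against 88 of 829 (10.6%) and 389 of 6792 (5.73%). In 16 members (37.2%, interval 23.0 to 53.3) the CDS ended over 50 bp before the last exon junction. That is the position which in mammals marks an mRNA for nonsense-mediated decay, and it was found in 69 of 829 loci (8.32%) of the next size class. Whether it acts as such a mark in the fly, and whether these transcripts are degraded, was not tested. Examples were the unnamed G10138, where 2239 bp separated the stop from the junction, lncRNA:CR43253 (1789 bp) and vtd (1157 bp). The shortest intron of a representative transcript measured 50 bp, in CG12929, and the longest 8314 bp, in vtd.

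The label was compared with the positions of RefSeq genes, which the rule did not use. This compares position and does not check strand. The RefSeq spans used lack strand, so a gene's strand was taken from catalogue transcripts that match its ends. A transcript was then given the name of a gene on its strand that held at least 50% of its span. By this measure 31 members were named, 25 of them after protein-coding genes (50%, interval 35.5 to 64.5), against 605 of 838 loci of the next size class (72.2%, 69.0 to 75.2) and 5711 of 6804 over 300 bp (83.9%). In 11 members (22%, interval 11.5 to 36.0) the coding transcript reached both ends of such a gene within 200 bp, against 361 of 838 (43.1%, 39.7 to 46.5). Each of these 11 transcripts was therefore itself among those that set the gene's strand. Whether they lie on the true strand of the gene was not tested. Another 14 covered a part of a coding gene, 6 carried the name of a non-coding RNA or of a gene segment, and 19 had no name. Protein lengths of RefSeq were not used here, so whether a CDS is the annotated protein was not tested. The members are thus best described as spliced loci with a short predicted CDS, of which a minority coincide in position with a complete coding gene.

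The 11 members that coincide with a coding gene were compact. Their exonic length had a median of 541 bp (429 to 2275), their CDS filled a median of 47.1% of it, and 7 of 11 had an intron within the CDS. Sem1 (2L, 7063985 to 7064468, plus strand) encodes a very small subunit of the proteasome's regulatory particle. Its single transcript had 2 exons, a 5' UTR of 101 bp, a CDS of 240 bp (80 codons) interrupted by an intron of 55 bp, and a 3' UTR of 88 bp. It began and ended within 1 bp of the annotated gene. e(y)2b (3R, 7094040 to 7094695, plus strand) is a paralogue of e(y)2, which belongs to the SAGA coactivator and to an mRNA export complex. It had 1 transcript of 3 exons with a CDS of 288 bp (96 codons), a 5' UTR of 84 bp and a 3' UTR of 153 bp.

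CG8369 (3R, 8821990 to 8822860) had the largest CDS share of all members, with 285 bp in 471 bp of exons (60.5%). CG14113 (3L, 13329137 to 13329702) matched its gene within 3 bp at both ends and had 249 bp of CDS over 2 exons. CG17343 (2L, 19064950 to 19069664) had 255 bp of CDS, and its only intron, of 4174 bp, lay 22 bp after the stop. CG18508 (X, 3172454 to 3173111) had 300 bp of CDS in 601 bp of exons and an intron in the 5' UTR. CG3566 (X, 6274974 to 6276687) had 270 bp of CDS with 2 introns inside it and differed from the others by a 3' UTR of 1250 bp. All of these had a single listed transcript.

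The remaining coding genes covered from end to end did not look like small-protein genes throughout. CG12929 (2R, 9586043 to 9586668) carried a CDS of 63 bp (21 codons) behind a 5' UTR of 373 bp that held both of its introns. The CG42486 locus (2L, 11841999 to 11844063) also overlapped CG46426 and CG14933. There, 2 unspliced transcripts carried a CDS of 234 bp, and 2 spliced ones that also held this stretch carried none. vtd encodes Rad21, the cohesin subunit that closes the ring around sister chromatids and a much larger protein. Its locus (3L, 27136520 to 27157999, plus strand) had 2 transcripts, of 5 and 8 exons, and both had the same CDS of 300 bp from 27140135 to 27146639. In the longer transcript 1347 bp and 3 introns followed that stop. No transcript in another locus was named vtd.

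**Figure D3:**
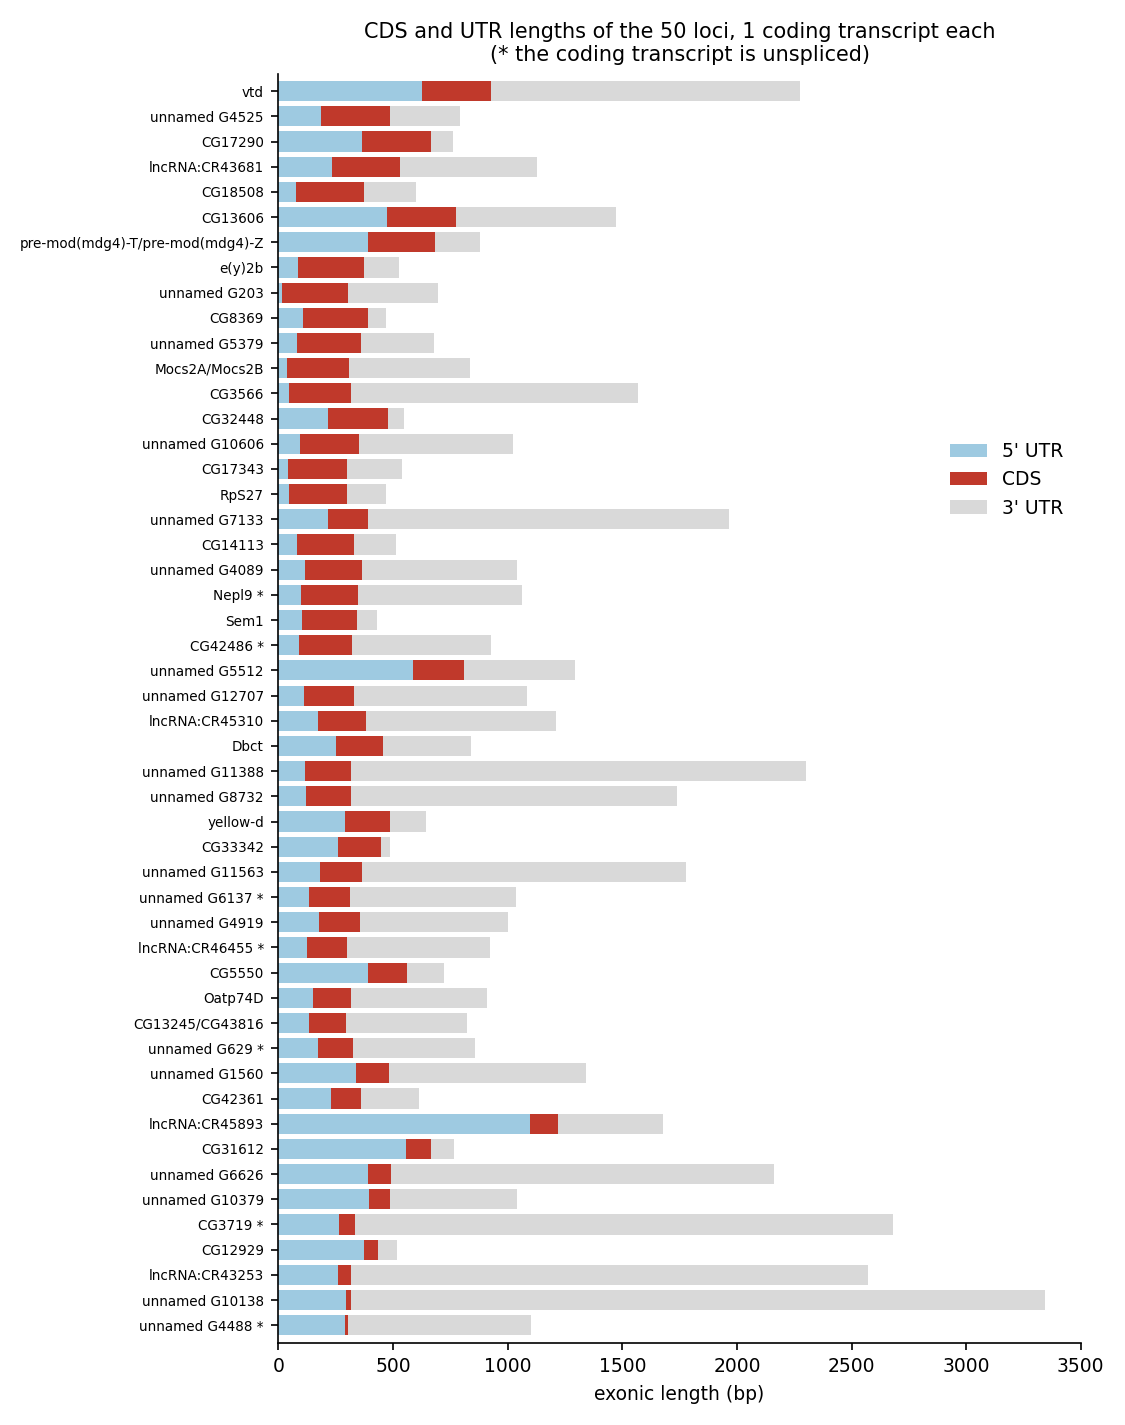
Each bar is the coding transcript of 1 of the 50 members (vertical axis, named by gene or as unnamed with its locus number), divided into 5' UTR (blue), CDS (red) and 3' UTR (grey), with exonic length in bp on the horizontal axis and a star where that transcript is unspliced. Sorted by longest CDS (for G7133 an unspliced transcript's 249 bp, while its drawn spliced transcript has 177 bp), the bars run from 12 bp of CDS at the bottom to 300 bp at the top, and the longest 3' UTR, of 3030 bp, belongs to the unnamed G10138.

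RpS27, a protein of the small ribosomal subunit, was the only one of the 70 represented cytosolic ribosomal protein genes to carry a CDS of at most 300 bp. Over all 8634 represented coding genes, 0.544% were spliced with such a CDS. The RpS27 locus (3R, 25245947 to 25247604, minus strand) had 4 transcripts. Transcript 3, with 3 exons and 469 bp, had a CDS of 255 bp (85 codons) of which 6 bp lay in the first exon, 220 bp in the middle exon and 29 bp in the last. Transcript 1 used the same 2 introns and held all 255 bp, with a longer last exon of 435 bp, yet it had no CDS. Transcript 2 began with an exon of 868 bp in place of the short first exon, and transcript 6 was an unspliced 713 bp from the same start. Neither had a CDS, and neither held the coding stretch of transcript 3 in its splicing. Because transcript 3 ended 229 bp before the annotated gene end, the locus counts among those that cover a part of a gene.

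Many members also listed transcripts without a CDS. They had 100 transcripts, of which 43 had no CDS (43%, interval 33.1 to 53.3), against 268 of 2135 (12.6%) in the next size class and 1453 of 36468 (3.98%) in loci over 300 bp. Of the 43, 23 (53.5%, interval 37.7 to 68.8) held every base of the locus's own coding stretch in the same splicing. These 23 came from 14 of the 20 members that had any transcript without CDS. In the next size class the number was 0 of 268, which allows at most 1.37% by the same interval, and in all loci over 300 bp it was 6 of 1453 (0.413%). CDS length was not matched in this comparison, and a shorter stretch is held whole more easily. Transcripts of the same locus are not independent, so the intervals over transcripts are likely too narrow.

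CG32448 and the RpL41 locus show such cases. CG32448 (3L, 21827735 to 21828907, minus strand) had 3 transcripts of 3 exons each that shared both ends of the middle exon and the start of the last, and differed in the first exon. Transcript 2 had a CDS of 258 bp (86 codons) over the middle and last exons, and transcripts 1 and 3 held the same bases without a CDS. RpL41, the smallest ribosomal protein, lies at 2R, 24903416 to 24903935, in RefSeq. Its locus had 3 transcripts with the same splice sites and first exons of 59, 539 and 1031 bp. The transcripts with first exons of 59 and 539 bp had no CDS, and the second of these held the coding stretch of the longest. In the longest the CDS of 222 bp ran from 24904104 to 24904325, outside the RefSeq span of RpL41 and before its annotated start. The short protein that makes the locus a member therefore lies outside RpL41, and no CDS was marked within the RpL41 span.

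**Figure D4:**
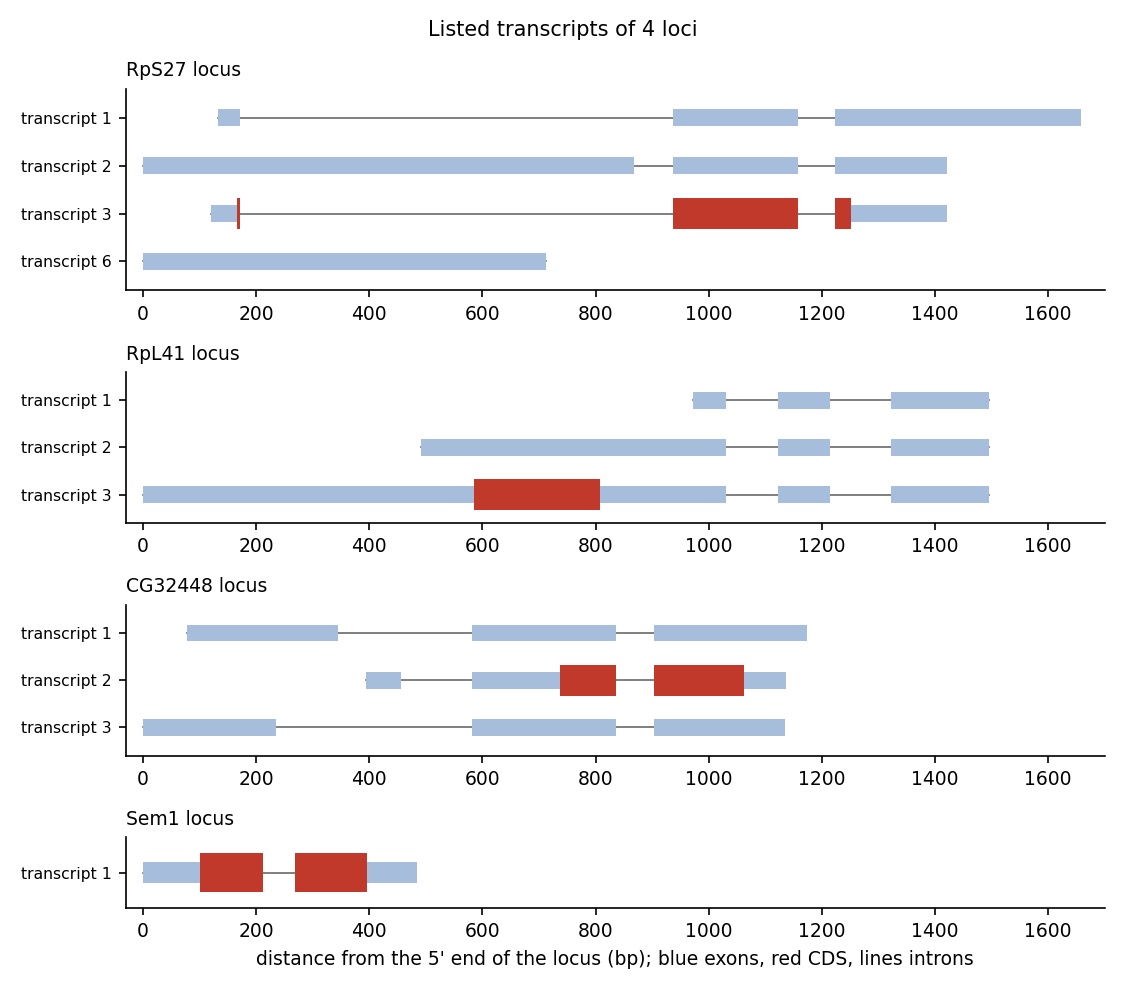
Exons (blue), CDS (red) and introns (lines) of all listed transcripts at the loci of RpS27, RpL41, CG32448 and Sem1, by distance from the 5' end of the locus (bp, horizontal axis). In RpS27 transcript 1 has the introns of transcript 3 but no CDS, in the RpL41 locus the CDS of 222 bp lies in the extended first exon alone, and in CG32448 only transcript 2 of 3 has a CDS.

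Among the 14 members that cover a part of a coding gene, 9 began over 200 bp inside the gene. Oatp74D, a gene for a membrane transporter that imports ecdysone, was represented by 1 transcript of 2 exons (3L, 17510642 to 17511689). It began 23524 bp inside the gene, ended 4 bp from the annotated end and had 165 bp of CDS. CG31612 (2L, 21762474 to 21773142) began 22305 bp inside and had 111 bp of CDS behind a 5' UTR of 555 bp. Dbct began 1604 bp, yellow-d 1160 bp, CG42361 443 bp, CG33342 264 bp and CG5550 205 bp inside their genes, with CDS lengths of 204, 195, 132, 186 and 168 bp. Each of these 7 had a single listed transcript. In Dbct, yellow-d, CG42361 and CG5550 it ended within 1 bp of the annotated gene end. By the strand given to these genes, these 4 transcripts hold the 3' part. The strand of all 7 genes was itself taken from catalogue transcripts matching a gene end, which include these same transcripts. No other transcript carried the name of any of these genes. Whether the genes lie on that strand was not tested. For none of the 31 named members did another locus list a CDS over 300 bp of the same gene. Only CG17290 and CG13606 had transcripts of the same name in another locus, and these had no CDS. For the other named members no such transcript existed, so this result was largely fixed in advance.

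Mocs2A and Mocs2B encode the subunits of molybdopterin synthase from a bicistronic gene, and RefSeq gives both the same span. The single transcript there (3R, 25126486 to 25127383, minus strand) had 2 exons, a 5' UTR of 37 bp, a CDS of 273 bp (91 codons) and a 3' UTR of 527 bp with 1 intron. It ended 854 bp before the annotated end. CG13245 and CG43816 also have a common span, and 1 of 4 transcripts (2L, 16004250 to 16005497) had a CDS, of 162 bp (54 codons), while 2 of the 3 others held it without being marked. CG17290 and CG13606 each had 300 bp of CDS and ended 1894 and 2728 bp before their gene's end. The transcript of CG3719 with a CDS was unspliced, began 1085 bp upstream of the gene, and had 69 bp of CDS and a 3' UTR of 2347 bp.

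The locus with the most transcripts, 7, joined Nepl9 and the sarcolamban genes SclA and SclB (2L, 16832667 to 16841865, plus strand). Sarcolambans are micropeptides that restrain the calcium pump of the sarcoplasmic reticulum in muscle, and Nepl9 is a neprilysin-like metallopeptidase gene. The CDS of 249 bp lay in transcript 6, which is unspliced and within Nepl9, 1019 bp inside that gene. The other 6 were spliced, with 3 to 6 exons and 858 to 2830 bp, and had no CDS. Of these, 4 were named after SclA and SclB together. Muscle markers were represented by 10 of 11 genes, Mhc and Act57B among them, while TpnC41C was not named. SclA and SclB are both counted among these 10, though they have the same span and the same 4 transcripts. No share over all RefSeq genes is set beside this count. Sheath muscle surrounds the testis, but since no read numbers are given, its part in the catalogue was not tested.

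The 6 members with the name of a non-coding RNA or a gene segment had longer transcripts, with a median exonic length of 1170 bp and a median CDS share of 18.2%. lncRNA:CR43681 (2L, 11390111 to 11392314) had the longest CDS, 300 bp in both of its transcripts. lncRNA:CR45893 (3L, 16343170 to 16345217) had the longest 5' UTR of any member, 1097 bp, before a CDS of 123 bp. lncRNA:CR45310 had 213 bp of CDS, lncRNA:CR46455 had 174 bp and lncRNA:CR43253 had 57 bp. The segment was pre-mod(mdg4), listed in RefSeq as overlapping units T and Z (3R, 21360177 to 21361308). mod(mdg4), the gene of a chromatin insulator protein family, joins such separately transcribed 3' exons to a common part by trans-splicing. At this locus 2 of 3 transcripts had the same CDS length of 294 bp (98 codons), and the other held the stretch without a CDS.

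The 19 unnamed members had the longest 3' UTRs, with a median of 725 bp (at most 3030), and in all 19 the 3' UTR exceeded the CDS. In 11 of them the CDS ended over 50 bp before the last junction, against 5 of the 31 named members. The strand of an overlapping gene was not settled for 13 of them, since no transcript matched that gene's ends or the matching ones disagreed. These overlapped, among others, Xbp1, a transcription factor of the unfolded protein response, Spt20, Mlp60A, a muscle LIM protein gene, dmGlut, a glutamate transporter gene, and dpr11. G629 and G11388 overlapped fipi and CG34353, both on the other strand, with 150 and 201 bp of CDS. G6137 (3L, 5079067 to 5080104) and G11563 (3R, 29536978 to 29539004) overlapped no RefSeq gene and had 180 and 183 bp of CDS. G11563 had 5 exons, 3 introns after the stop and 1412 bp of 3' UTR. G6626 (3L, 9378831 to 9381138), at asRNA:CR43481, had 5 transcripts. Only the one with the most distant start had a CDS, of 99 bp, and the other 4 held that stretch.

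The shortest coding stretches held only a few codons. The CDS of G4488 (2R, 17743786 to 17745575) measured 12 bp (4 codons) within an unspliced transcript of 1102 bp. That of G10138 (3R, 17730634 to 17734139) measured 18 bp (6 codons) in 3345 bp of exons, 0.538% of the length. Altogether 7 members had a CDS under 100 bp. Besides these, they were CG12929, CG3719, lncRNA:CR43253, G6626 and G10379, the last with 93 bp.

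The members lay on 2R and 3R (13 each), 2L (10), 3L (9) and X (5), with 0 on Y. The share on X was 10% (interval 3.33 to 21.8), against 1055 of 6804 loci over 300 bp (15.5%, 14.7 to 16.4) and 55 of 651 spliced loci without CDS (8.45%). Of the 50, 0 had another member within 10 kb, which allows a share of up to 7.11%, and 0 had one within 100 kb. No other set of 50 loci was drawn for comparison. Whether members lie further apart than so few loci would in any case was therefore not tested. The closest pair was Mocs2A/Mocs2B and RpS27 on 3R, 118563 bp apart with 8 other loci between them. Next came CG14113 and the unnamed G7133 on 3L (173734 bp) and CG42486 and the unnamed G1560 on 2L (187612 bp). The median distance to the nearest member was 632004 bp (interval 449684 to 1706127), and the most isolated was Dbct on X, 7252815 bp from the next.

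Other loci lay close to most members. Another locus of any kind lay within 10 kb of 44 members (88%, interval 75.7 to 95.5), against 6570 of 6804 loci over 300 bp (96.6%). The span of 28 members (56%, interval 41.3 to 70.0) overlapped a locus on the other strand, against 55.6% of loci over 300 bp and 34.9% of spliced loci without CDS. A spliced locus without CDS lay within 10 kb of 10 members (20%, interval 10.03 to 33.7), against 902 of 6804 loci over 300 bp (13.3%, 12.5 to 14.1).

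Testis genes of late spermatogenesis were looked up by gene name, to see where they fell. The list was not limited to small proteins, and m-cup, for example, had a longest CDS of 703 codons. All 35 listed genes of the sperm tail, sperm chromatin and late spermatids that matched a RefSeq symbol were represented. No share over all RefSeq genes is set beside that count. Of these 35, 0 had a spliced transcript and a longest CDS of 1 to 300 bp. Over all 8634 represented coding genes, 0.544% had such a CDS and 3.59% were spliced with none. With 35 genes, a count of 0 is close to the first of these shares. In 28 the longest CDS exceeded 300 bp and the gene was spliced, in 2 (boly and t-cup) every transcript was unspliced, and in 5 every transcript was spliced and had no CDS. These 5 were Mst84Da, Mst84Db, Mst84Dc, Mst84Dd and Mst87F, which encode the short cysteine-rich proteins of the sperm tail. Each had 1 transcript of 2 exons, of 363, 433, 384, 397 and 417 bp. These sperm tail genes were thus present as spliced transcripts in which no CDS was marked, and were not members.

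Small housekeeping proteins were also found among spliced transcripts without CDS. Over all 8634 represented coding genes, 0.544% were spliced with a CDS of at most 300 bp and 3.59% were spliced with none. Of the 70 cytosolic ribosomal protein genes represented, 55 were spliced with a CDS over 300 bp, 1 (RpS27) had a shorter one and 9 were spliced with none. The 9 were RpL15, RpL29, RpL37-1, RpL38, RpL39, RpL41, RpS28-like, RpS28b and RpS29. RpL15 is not a small protein, and its 5 transcripts of 702 to 1022 bp had no CDS either. Of 79 genes of the respiratory chain and ATP synthase, 3 had a spliced transcript and a short CDS: ATPsynG with 300 bp, COX7B with 273 bp and COX6CL with 264 bp. All 3 lay in loci where another transcript had a longer CDS, so their loci were not members. A further 12 were spliced without CDS, including ATPsynE with 6 transcripts, COX7A with 3, COX8 with 1 and UQCR-11 with 1.

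Of 20 genes of mitochondrial import, 7 were spliced without CDS, among them Tim8, Tim9a, Tim10 and Tom7, against 3.59% of all represented coding genes. None had a spliced transcript and a short CDS, against 0.544% of all represented coding genes. Also spliced without CDS were 2 of 6 represented ubiquitin-like and RING genes, the modifier genes Sumo and Nedd8. The same held for 1 of 5 dynein light chain genes (robl) and 1 of 8 genes of the Sm and LSm list (the snRNP gene SNRPG). These genes had 1 or 2 transcripts each. In the same 3 lists, 2, 1 and 4 genes were spliced with a CDS over 300 bp. SmF, another snRNP gene, had a CDS of 267 bp in its 1 unspliced transcript. Among markers of other cells, 5 of 29 genes of accessory gland and ejaculatory duct and 2 of 26 immune peptide genes were named. Of these 7, 0 had a short CDS, which is close to the same share of 0.544%. The small seminal peptide genes SP, Dup99B and Anp were not named. No share over all RefSeq genes is set beside these counts of named genes.

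**Figure D5:**
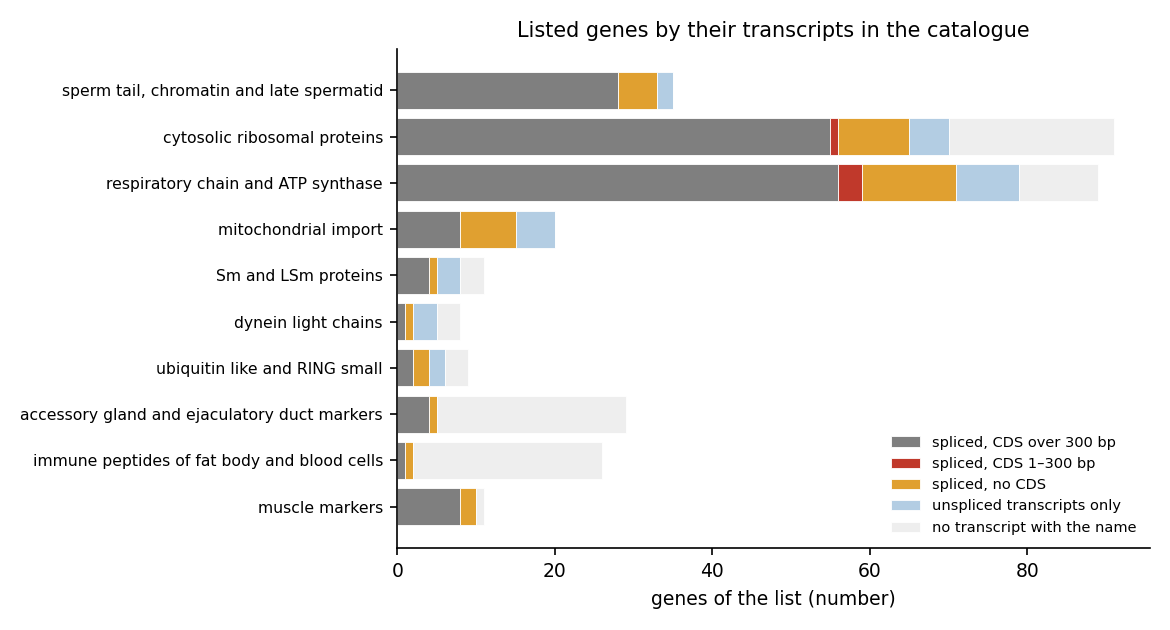
Bars show, for each list (vertical axis), how many genes (horizontal axis) were spliced with a CDS over 300 bp (grey), spliced with 1 to 300 bp (red), spliced without CDS (orange), unspliced only (light blue) or not named in the catalogue (pale grey). Short CDS appear for 1 ribosomal protein gene and 3 genes of the respiratory chain and ATP synthase, while 5 spermatid genes, 9 ribosomal protein genes and 12 respiratory chain genes are spliced without CDS. Over all 8634 represented coding genes these shares are 0.544% and 3.59%.

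Counted by gene in place of locus, 47 protein-coding genes with a spliced transcript had a longest CDS of 1 to 300 bp (0.544% of 8634 represented coding genes), and 310 (3.59%) were spliced with none. Of the 47, 26 lay in member loci and 21 in loci where other transcripts had a longer CDS. The 21 include CG15461 (177 bp) at a locus with 1851 bp of CDS, and HP4, the gene of a heterochromatin-associated protein, with 300 bp at a locus of 1971 bp. At the level of transcripts, 394 had a CDS of 1 to 300 bp. Of these, 57 belonged to members and 283 to 221 loci that also listed a longer CDS.

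Among the members, 25 of 50 had a single listed transcript (50%, interval 35.5 to 64.5), against 353 of 838 loci (42.1%) of the next size class and 1317 of 6804 (19.4%) over 300 bp. Transcript numbers in member loci ran to a sum of 223, of which 100 were listed (44.8%, interval 38.2 to 51.6). The share was 52.2% in the next size class, 54.6% in spliced loci without CDS and 34.1% in loci over 300 bp. The single listed transcript of Oatp74D carried number 24 and that of the unnamed G4525 number 12, though each locus listed only that transcript.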

How the data were processed

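The deposited file lists transcripts, exons and CDS parts by position and reading frame, without read numbers. Per the deposited file's own name, the authors merged the models of all samples with TAMA, corrected and filtered them, filtered them again through tappAS and added CDS. The sources used here name no settings, aligner or CDS predictor. Such filters, and a minimum reading frame if any was set, could affect which short CDS are listed. This was not tested. The builds BDGP6 and dm6 (both Release 6) are named in the submitters' processing notes.

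CDS, UTR and intron lengths were computed with Python 3.11.15, numpy 2.4.6 and scipy 1.17.1. UTR length is the exonic length outside the CDS. Names came from RefSeq gene spans (assembly Release 6 plus ISO1 MT). These lack strand, which was taken from transcripts that end within 200 bp of a gene end, where at least 80% agreed. Of 17693 genes on the arms used, 9288 were given a strand and 294 stayed ambiguous. The remaining genes matched no transcript end and had no strand. Genes without a settled strand could name no transcript. The code was tested on simulated loci that did not overlap and had a single transcript and a matching gene each. Naming at overlapping loci was therefore not tested. Genome and protein sequence were not used here, so no sequence is printed and the planned match to protein lengths was not run.

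The members and gene lists were chosen with earlier results of these data known. The fixed rule for named genes took listed genes, extremes of transcript number, exon number and UTR length, and loci next to the limit. Every other member was named after its values were seen.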

Additional observations from a re-analysis of the deposited data

How the results depend on the processing

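Of 22 alternatives over 7 results, 16 left the value within its interval or, for a count, within 1.5 times. The number of members, 50, was 12 with a limit of 150 bp, 22 with 200 bp and 451 with 450 bp, and 59 with a limit 1 codon higher. Restricted to members that reach both ends of a coding gene, an alternative chosen after seeing the data, the median 5' UTR was 92.5 bp in place of 188 bp and the median 3' UTR 168.5 bp in place of 488 bp (n = 10). At 200 kb, also chosen after seeing the data, 16% of members had another member nearby, against 0 at 10 kb. The number of named members was 25 when at least 50% of both spans had to overlap, against 31. The median exon number, 2, was 3 over all spliced transcripts, over the transcript with the most exons, and over the members that reach both gene ends, within its interval of 2 to 3. Matching CDS to RefSeq protein lengths was not run. No paired analysis was possible because the merged catalogue carries no sample or replicate. Without read numbers, how well each transcript is supported is unknown.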
